A study of Homo sapiens with 15 samples.

Results

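Introns of at most 500 nucleotides that stay in part of the polyadenylated RNA were followed in HEK-293, a long-established human cell line of embryonic kidney origin. Members were the intron events of the splicing table with a length of 500 nucleotides or less, at least 10 reads in each of the 15 libraries and a mean percent spliced in (PSI) of 2 or more over the 8 control libraries. PSI is the percentage of transcripts, judged by reads across the junctions, that keep the intron. The rule found 609 introns in 512 genes, out of 6246 introns of this length and 18956 introns of any length with that many reads. The remaining 5637 short introns lay under a mean control PSI of 2, and 847 introns longer than 500 nucleotides reached it. The members were chosen by their control PSI, so these levels are given as a description and not tested.

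The RNA came from 4 groups. Polysome GEMIN5 (n = 4) was RNA from the polysome fractions (8 to 12 of 12) of a sucrose gradient, and Input GEMIN5 (n = 3) was RNA from the cytoplasmic lysate, both from cells transfected with the plasmid pcDNA3Xpress-Gemin5 by a lipid reagent and harvested after 24 h. Polysome control (n = 4) and Input control (n = 4) were the same fractions of untreated cells. GEMIN5 itself, the plasmid and the lipid reagent therefore cannot be told apart. All cells were held in cycloheximide, which stalls ribosomes on the mRNA, and all libraries came from a stranded poly(A) kit. The labels call the samples independent without saying whether each had its own culture, and p-values therefore reflect how far these samples scatter, which may be technical. The study asks whether splicing events that follow a raised level of GEMIN5 reach the ribosomes.

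Most introns are removed in the nucleus by the spliceosome, whose small nuclear ribonucleoproteins are loaded with Sm proteins by the SMN complex. GEMIN5 is the member of that complex that recognises small nuclear RNAs, and it also binds ribosomes and mRNAs. Short introns, often rich in G and C, can be left in the mature RNA; a kept intron may hold a stop codon in the reading frame, and such RNAs can be held in the nucleus, degraded, or exported and translated.

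Intron sequences were available only where an annotated transcript keeps the intron as part of an exon, which was so for 378 of the 609 (62.1%). The following are shown because the results turn on them. ENKD1 (chr16:67663557-67663656, minus strand), NME3 (chr16:1771411-1771488, minus strand) and WDR83 (chr19:12669894-12669976, plus strand) are coding-region introns that were lower in polysomes than in Input of GEMIN5 cells. GAS5 (chr1:173864507-173864674, minus strand) lies in a noncoding RNA and was lower in GEMIN5 cells than in control cells in Input. USP21 (chr1:161164613-161164834, plus strand) and NR2C2AP (chr19:19202042-19202330, minus strand), also in coding regions, open with the letters ATATCC of the minor (U12) spliceosome class. Sequences are read 5′ to 3′ from GENCODE release 29 transcripts on GRCh38, and capitals mark the first 6 and the last 3 bases of the intron.

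ENKD1: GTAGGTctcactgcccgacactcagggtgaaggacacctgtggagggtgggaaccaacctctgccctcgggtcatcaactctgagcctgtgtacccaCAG
NME3: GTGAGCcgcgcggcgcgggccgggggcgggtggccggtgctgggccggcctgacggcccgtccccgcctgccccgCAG
WDR83: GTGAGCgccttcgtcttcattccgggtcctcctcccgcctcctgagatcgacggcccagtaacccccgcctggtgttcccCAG
GAS5: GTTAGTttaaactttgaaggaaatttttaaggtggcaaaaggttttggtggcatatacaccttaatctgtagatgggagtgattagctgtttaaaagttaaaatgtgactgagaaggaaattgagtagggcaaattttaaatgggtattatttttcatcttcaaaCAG
USP21: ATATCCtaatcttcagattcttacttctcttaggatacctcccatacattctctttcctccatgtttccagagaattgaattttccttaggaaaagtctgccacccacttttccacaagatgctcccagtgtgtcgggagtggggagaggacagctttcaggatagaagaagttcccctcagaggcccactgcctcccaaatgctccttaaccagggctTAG
NR2C2AP: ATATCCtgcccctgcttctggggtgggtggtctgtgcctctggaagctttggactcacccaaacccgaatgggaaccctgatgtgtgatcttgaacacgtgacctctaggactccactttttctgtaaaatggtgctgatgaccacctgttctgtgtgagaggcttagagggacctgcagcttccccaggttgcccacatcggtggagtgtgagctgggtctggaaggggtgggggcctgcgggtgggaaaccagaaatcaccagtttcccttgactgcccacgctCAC

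The first 4 open with GT and end with AG, the ends of the major spliceosome class, and NME3 is 87.2% G and C while GAS5 is 32.1%. Of the 378 members with known sequence, 367 had GT-AG ends and 7 had GC-AG ends. A U12-type first motif (ATATCC or GTATCC) was found in 4, namely USP21, SCRN2, NR2C2AP and CYB5R1.

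Libraries held 11191417 to 18407933 counted reads. GEMIN5 read 647 to 1035 CPM (counts scaled to library size by TMM) in Polysome GEMIN5 against 4.19 to 7.18 CPM in Polysome control, and 1319 to 1543 CPM in Input GEMIN5 against 12.4 to 15.9 CPM in Input control. The Input GEMIN5 libraries stood apart: their TMM scaling factors were 0.354 to 0.488, against 0.971 to 1.03 in Input control, and spliced reads near the 3′ end outweighed those near the 5′ end by a log2 ratio of 1.76 to 1.90, against 0.589 to 0.685. In the Polysome libraries the factors were 1.34 to 1.53 (GEMIN5) and 1.27 to 1.55 (control), and the 3′ to 5′ log2 ratios 0.648 to 1.06 and 0.595 to 1.36. Of 7 HEK-293 marker genes, 6 or 7 were detected in each library. All 10 liver markers fixed as a check were detected, with 977 to 1458 counts in sum, in Input control replicates 3 and 4 and in the 4 Polysome control libraries, and the other libraries held 12 to 56 counts. Blood-cell markers were detected in the same way, all 6 of them in those 6 libraries and 2 or 3 in each of the others, with 82 to 110 counts in sum in Polysome GEMIN5 against 148 to 234 in Polysome control, and 92 to 116 in Input GEMIN5 against 67 to 106 in Input control. The total counts of called introns and of called host genes that rest on Input control are also given without those 2 libraries. Every Polysome control library held the liver and blood-cell transcripts, so in polysomes they cannot be told apart from the control group.

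Retention was mostly low. The median of the members' mean control PSI was 7.10, with 240 members between 2 and 5, 117 between 5 and 10, 90 between 10 and 20, 63 between 20 and 50, 39 between 50 and 95, and 60 at 95 or more. Just inside the PSI threshold stood introns of VPS9D1-AS1 (2.001) and TMEM134 (2.002), and just outside it introns of TSPAN31 and NCAPG (both 1.996). The longest members, in TMEM205 and AC092070.4, measured 498 nucleotides, and the next intron over the limit, in IFI27L1, measured 501.

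The annotation changed with the level. Of the 240 members between 2 and 5, 220 were introns of the gene's principal transcript, the reference coding isoform, but of the 60 at 95 or more only 7 were, while 45 belonged to noncoding transcripts only. In that top band 41 introns read exactly 100 in all 8 control libraries, including introns of GPX4, which encodes a glutathione peroxidase that removes lipid peroxides, C2orf74, the adhesion molecule ICAM3 and CRACR2B, a calcium channel regulator. The GPX4 intron had 7807 reads across its downstream junction, 3 across its upstream junction and none that joined the exons, and the CRACR2B intron had 380, 0 and 0. Both values of 100 thus rested on reads at the downstream edge and on no read that joined the exons. An intron at 100 in every library could not be tested, and 508 members entered the tests after a filter that asked for a PSI of at least 5 in some library and at most 95 in some library.

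Several features of the members are set beside those of the 5637 short introns under 2 and the 847 long retained introns, as descriptions with no test. The share kept inside an exon of another annotated transcript of the gene was 57.6% for members, 30.3% for the other short introns and 8.97% for long retained introns. The median G and C content was 63.4% (n = 378) against 57.8% (n = 1841) and 50.5% (n = 91), all over introns of known sequence only. Of the 459 members in a principal transcript, 135 were its first intron (29.4%, against 7.17% of the other short introns) and 135 its last (29.4% against 18.8%). These transcripts had a median of 7 introns against 9. Introns before the coding sequence made up 51 of the 459 (11.1%, against 1.43%), and 402 lay within it. The long retained introns were nearer to the members in these features. Of the 523 in a principal transcript, 25.4% were its first intron, 21.2% its last and 10.5% lay before the coding sequence. The transcripts of these long introns had a median of 7 introns. Median lengths were alike, at 184 nucleotides for members and 180 for the other short introns.

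Within the coding sequence, 132 of 402 members (32.8%) had a length that was a multiple of 3, against 32.3% of the other short introns. The reading frame could be followed through 269 members: 84 held no stop codon in frame (31.2%, against 18.9%), and 27 of these also kept the frame (10.0%, against 4.62%). The 4 with the highest control level were in FBXL15, USP21, SMPD2 and RGS14. SMPD2, a neutral sphingomyelinase, read 24.1 ± 11 in Polysome GEMIN5, 16.6 ± 9.1 in Input GEMIN5, 17.8 ± 11 in Polysome control and 21.6 ± 7.3 in Input control (mean PSI ± SD, n = 4, 3, 4 and 4), so its groups overlapped. USP21, a deubiquitinase whose intron has the U12-type first motif, read 15.3 ± 7.4, 10.5 ± 16, 25.2 ± 5.5 and 19.95 ± 12 in the same order. Neither was called in any comparison. Of the other U12-type members, NR2C2AP read 5.12 ± 2.8 in Polysome GEMIN5, 10.6 ± 8.5 in Input GEMIN5, 9.14 ± 2.5 in Polysome control and 6.58 ± 3.6 in Input control. SCRN2 read 13.4, 16.0, 12.0 and 13.9 in that order, and CYB5R1, a cytochrome b5 reductase, 4.05, 8.06, 4.89 and 5.42. None of these 3 was called in any comparison.

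A transcript that keeps the whole intron yields reads across both exon-intron junctions, so the balance of the 2 was described over all libraries. In 335 of the 609 members (55.0%) the reads at both junctions lay within 4-fold of each other, in 93 the upstream junction had over 4 times as many and in 181 the downstream junction had. Among the long retained introns 69 of 847 (8.15%) lay within 4-fold. For introns of principal transcripts alone the shares were 63.4% for members and 8.03% for long retained introns. A PSI built on 1 junction does not show that the whole intron was kept, and the junctions read are therefore given beside some of the values below. Where they are not given, the values do not show that the whole intron was kept.

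**Figure D1:**
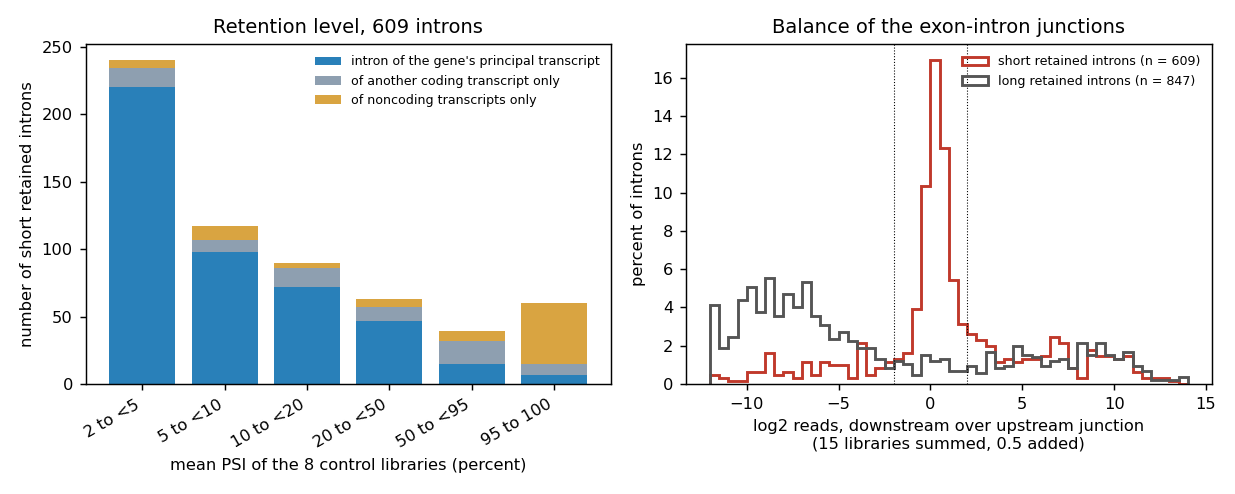
Left, number of short retained introns (vertical axis) by mean PSI of the 8 control libraries in percent (horizontal axis), coloured by annotation: 240 of 609 lie between 2 and 5, and 45 of the 60 at 95 or more belong to noncoding transcripts only. Right, percent of introns (vertical axis) by the log2 ratio of downstream to upstream junction reads (horizontal axis), with dotted lines at 4-fold either way: 55.0% of short retained introns and 8.15% of long retained introns lie between them.

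The first comparison asks whether GEMIN5 cells keep these introns more or less than control cells in cytoplasmic RNA. The level of the members as a whole was nearly the same: the median PSI of a library was 7.54 to 7.94 in Input GEMIN5 against 7.29 to 7.58 in Input control. Input control is part of the control mean by which members were chosen, so this comparison is not independent of the rule. By limma on log2 odds, with Benjamini-Hochberg adjustment over 12697 splicing events of all types, 18 members were higher and 9 lower in Input GEMIN5, which is 5.31% of 508 tested against 10.2% of all events. The median log2 odds ratio was 0.02 over the 508, against -0.25 over the 12697 events. With no PSI filter it was 0.00 over all 609 members, against 0.07 over 76301 events. The long retained introns gave 113 higher and 19 lower of 610, with a median of 0.28. Without Input control replicates 3 and 4 they gave 50 and 6, with a median of 0.36. That short and long introns differ was not tested. Of the short introns under a mean control PSI of 2, 165 entered the tests, each with a PSI of 5 or more in some library. Of these, 26 were higher and 0 lower in Input GEMIN5, with a median log2 odds ratio of 1.07. Their control mean lay under 2, so the PSI of 5 could be reached through GEMIN5 libraries. The direction is therefore not independent of the filter. With no PSI filter the median was 0.78 over all 5637. Their median PSI was 0 in every library, where 0.5 added to each read number makes the log2 odds depend on depth. The difference of these short introns from the members was not tested.

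Among the members higher in GEMIN5 cells was an intron of UIMC1, which encodes the ubiquitin-binding RAP80 of the BRCA1-A DNA repair complex. It read 72.0, 71.4 and 65.2 PSI in Input GEMIN5 against 23.7, 24.4, 22.4 and 32.4 in Input control. The groups did not overlap, and the log2 odds ratio was 2.66 (SE 0.44, adjusted p = 0.0022). In Input GEMIN5 this rested on 77 upstream and 4 downstream junction reads, with 17 reads that joined the exons, so the whole intron was not shown to be kept.

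Introns of PSRC1, a microtubule-binding spindle protein, and MKNK2, a kinase of the cap-binding factor eIF4E, were also higher. PSRC1 read 30, 37.1 and 23.8 in Input GEMIN5 against 15.4, 5.62, 6.80 and 8.33 in Input control (log2 odds ratio 2.11, SE 0.42, adjusted p = 0.0068). MKNK2 averaged 34.5 ± 9.3 in Input GEMIN5 and 14.9 ± 5.9 in Input control (SD, n = 3 and 4; log2 odds ratio 1.62, SE 0.41, adjusted p = 0.022). Neither had overlapping groups, and each was read at 1 junction only, the upstream one for PSRC1 and the downstream one for MKNK2. The gene AC015802.3, annotated as lying in sense inside another gene's intron, averaged 86.2 ± 12 in Input GEMIN5 and 58.8 ± 5.6 in Input control (log2 odds ratio 3.21, SE 0.92, adjusted p = 0.039).

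The last intron of SF1, which binds the branch point and is itself a splicing factor, had reads at both junctions. It read 51.2, 57.9 and 52.6 in Input GEMIN5 against 29.8, 27.7, 41.3 and 38.0 in Input control, with no overlap (log2 odds ratio 1.16, SE 0.27, adjusted p = 0.015). Its reads in Input GEMIN5 were 56 at the upstream and 7 at the downstream junction, against 64 and 55 in Input control, so most junction reads in GEMIN5 cells were upstream. CDKN2C, an inhibitor of the cyclin D kinases, has its member intron before the coding sequence. It read 73.7, 66.7 and 70.5 in Input GEMIN5 against 44.5, 45.6, 61.3 and 46.1 in Input control (log2 odds ratio 1.25, SE 0.27, adjusted p = 0.0095), again without overlap, on downstream junction reads only (135 against 283).

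Of the members lower in GEMIN5 cells, GAS5, a noncoding RNA that hosts small nucleolar RNAs, changed most on the odds scale. Its intron, shown above, read 1.04, 0.800 and 0.440 in Input GEMIN5 against 10.0, 15.3, 9.06 and 9.86 in Input control (log2 odds ratio -4.06, SE 0.58, adjusted p = 0.0011). No value overlapped, and reads were fewer at both junctions. The sums over the libraries of a group were 52 upstream and 41 downstream reads with 1555 spliced reads in Input GEMIN5, against 479 and 180 with 622 in Input control. In polysomes it read 1.08 to 2.11 in GEMIN5 cells and 0.330 to 2.65 in control cells.

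TMEM141, a small membrane protein gene, read 5.23, 4.70 and 4.73 in Input GEMIN5 against 11.2, 8.51, 11.4 and 9.33 in Input control (log2 odds ratio -1.12, SE 0.24, adjusted p = 0.010), without overlap and mostly on the downstream junction (269 against 363 reads). The intron of the noncoding gene LINC00623 averaged 25.2 ± 9.7 in Input GEMIN5 and 46.4 ± 6.3 in Input control (log2 odds ratio -1.40, SE 0.41, adjusted p = 0.042). RPL9, a large-subunit ribosomal protein, averaged 8.89 ± 0.93 in Input GEMIN5 and 17.5 ± 0.94 in Input control (log2 odds ratio -1.12, SE 0.23, adjusted p = 0.0073), on the downstream junction only. Ribosomal protein genes have many processed copies that share their spliced reads, so their values are uncertain.

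The calls were counted by junction balance. Of the 289 tested members with junctions within 4-fold, 5 were higher and 6 lower, and of the 219 with junctions further apart 13 were higher and 3 lower. Of the 18 higher members, 17 were introns of a principal transcript, against 406 of the 508 tested. Of those 17, 15 were not its last intron, against 290 of the 406. Whether these shares differ was not tested. Without Input control replicates 3 and 4, which held the liver transcripts, 5 members were called higher and 1 lower (1.18% of 508, against 3.37% of all events in the same fit), with a median log2 odds ratio of -0.0034 over the 508 and -0.24 over all events. Among the 6 were UIMC1 (log2 odds ratio 2.78, adjusted p = 0.021), SF1 (adjusted p = 0.022), CDKN2C (adjusted p = 0.016) and GAS5 (-4.28, adjusted p = 0.013). PSRC1 (adjusted p = 0.062), MKNK2 (0.066), AC015802.3 (0.16), TMEM141 (0.074), RPL9 (0.058), LINC00623 (0.082) and APEX1 (0.18) then missed the threshold with the same sign. Without Input GEMIN5 replicate 2, and likewise without Input control replicate 4, 15 members were called in place of 27 (2.95% of 508, against 6.13% of all events without the one and 7.14% without the other). The part of the 3′ skew in these results was not tested.

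**Figure D2:**
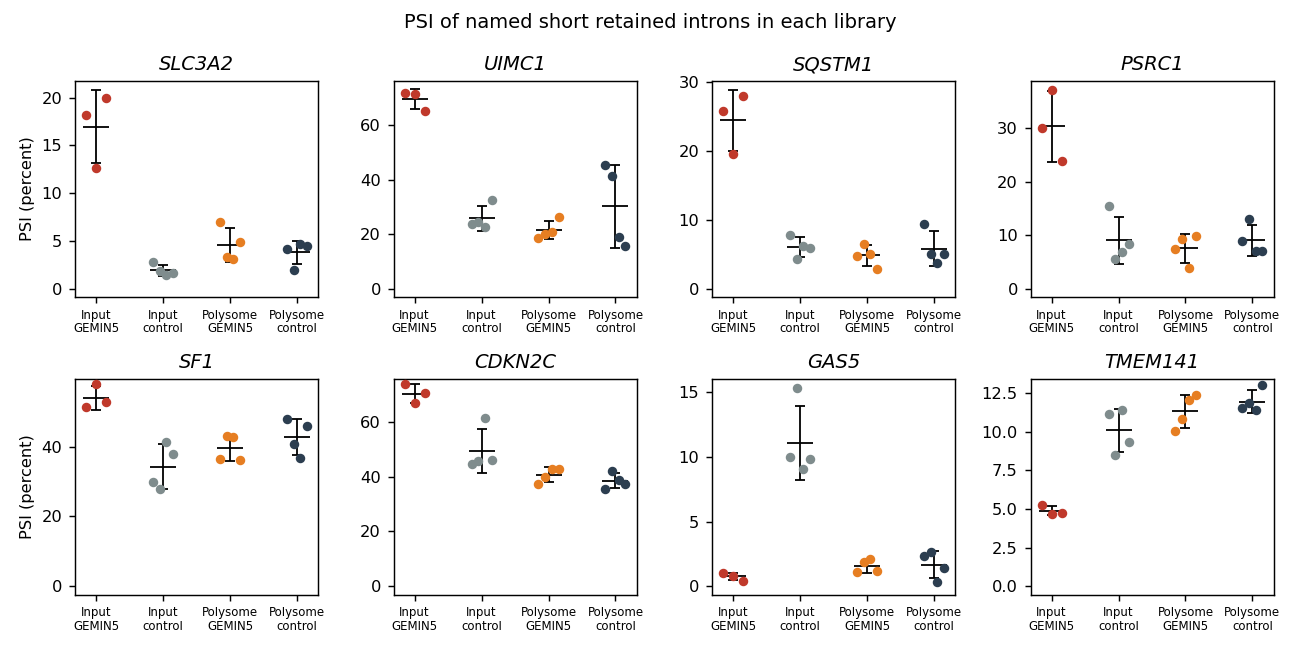
PSI in percent (vertical axes) of 8 named short retained introns in each library (points), with mean and SD, by group (horizontal axes). Input GEMIN5 stands apart from Input control in all 8, and the 2 Polysome groups overlap in all 8. UIMC1, PSRC1, SF1, CDKN2C, GAS5 and TMEM141 were named by a rule that asked for no overlap in Input, so their separation there is by selection.

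In polysomes no difference between GEMIN5 and control cells was called. The library medians were 6.58 to 7.35 in Polysome GEMIN5 and 6.75 to 7.39 in Polysome control, and limma called 0 of 508 members, against 0.00788% of all events (1 event). At an unadjusted p under 0.05 there were 27 members (5.31%), against 5.70% of all events. A difference of 15 PSI points with a gap of 5 points between the groups was reached by 8 higher and 2 lower members in Input (2.95% of all events reached it) and by 0 in polysomes (0.0551% of all events). Without Input control replicates 3 and 4 the Input counts were 12 and 5, against 4.04% of all events. UIMC1 read 18.8, 20, 20.8 and 26.4 in Polysome GEMIN5 against 45.5, 41.3, 19.1 and 15.5 in Polysome control, and the groups overlapped. PSRC1 read 7.48, 9.19, 3.8 and 9.84 in Polysome GEMIN5 against 8.97, 13.0, 6.94 and 7.07 in Polysome control. Of the 27 members called in Input, 10 had the same sign in polysomes and none reached an unadjusted p under 0.05. Across the 508 members the 2 sets of log2 odds ratios had a correlation of -0.03, as a description over introns that share libraries and depth.

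The difference between the 2 GEMIN5 effects, Polysome minus Input, was tested directly. It passed for 8 members, 1 higher and 7 lower (1.57%, against 1.94% of all events). The 7 lower ones were UIMC1, PSRC1, SLC3A2, SQSTM1, RPL7L1, PTCD3 and GGCX, and the higher one was GAS5. SLC3A2, the heavy chain of the CD98 amino acid transporters, read 18.2, 12.6 and 20 in Input GEMIN5 against 2.76, 1.85, 1.40 and 1.61 in Input control, but 7.02, 3.30, 3.08 and 4.90 in Polysome GEMIN5 against 4.17, 2.00, 4.64 and 4.44 in Polysome control. The Input groups stood apart and the Polysome groups overlapped, and the difference of effects was -3.14 (log2, SE 0.54, adjusted p = 0.014). All SLC3A2 control values lay under the PSI of 5 that the filter asked for, so it entered the tests only through GEMIN5 libraries. Its result is therefore not independent of that filter. Of the 240 members with a control PSI of 2 to 5, 184 entered the tests. Their median log2 odds ratio for GEMIN5 in Input was 0.19, against 0.10 over all 240 with no PSI filter.

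SQSTM1, the autophagy receptor p62, read 25.7, 19.5 and 28 in Input GEMIN5 against 7.84, 4.25, 6.18 and 5.88 in Input control, and its Polysome means were 4.80 ± 1.5 (GEMIN5) and 5.75 ± 2.5 (control). Its difference of effects was -2.52 (SE 0.53, adjusted p = 0.028). RPL7L1, a relative of a ribosomal protein, averaged 24.9 ± 14 in Input GEMIN5 and 6.76 ± 2.9 in Input control, against 1.96 ± 0.96 in Polysome GEMIN5 and 3.40 ± 1.0 in Polysome control. All 7 lower members had reads almost only at 1 junction: SQSTM1 had 218 upstream and 0 downstream over all libraries, SLC3A2 0 and 97, GGCX 2694 and 3. No member with summed junction reads within 4-fold, a rule chosen after seeing the data, had a lower effect in polysomes by this test. Under the other balance rule, applied in each library, 2 of the 8 calls remained. Without Input control replicates 3 and 4 none of the 8 passed (adjusted p 0.067 to 0.16), against 0.315% of all events. Leaving out 1 library gave 3 calls without Input control replicate 2, Input control replicate 3 or Polysome GEMIN5 replicate 3, 4 without Input control replicate 4 or Polysome control replicate 1 or 2, and 5 without Polysome GEMIN5 replicate 1 or 2 or any 1 Input GEMIN5 library. Without Input control replicate 1 the calls were 1 higher and 5 lower. Without Polysome GEMIN5 replicate 4, and likewise without Polysome control replicate 4, they were 2 higher and 4 lower. Without Polysome control replicate 3 they were 1 higher and 8 lower. In those fits 0.677% to 2.32% of all events were called.

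**Figure D3:**
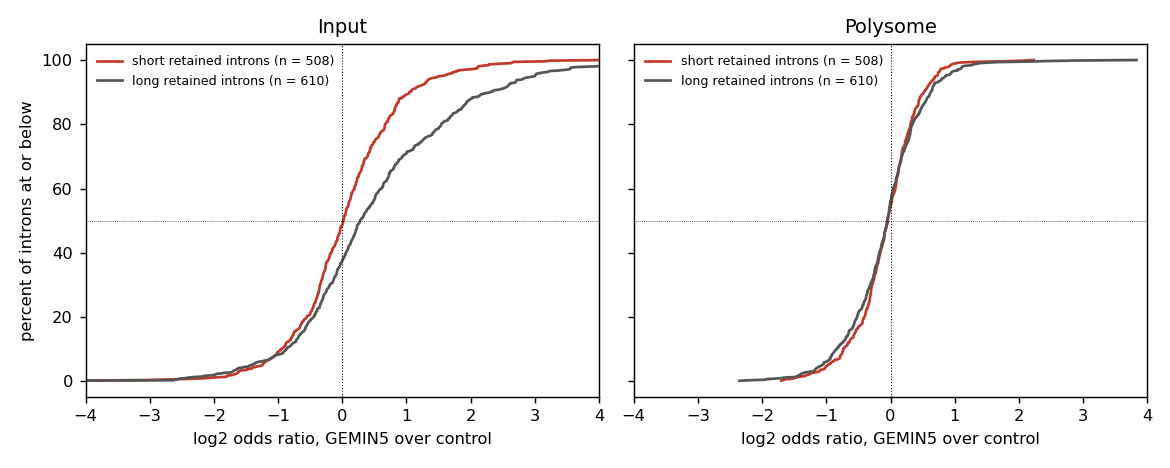
Cumulative percent of introns (vertical axis) by log2 odds ratio of GEMIN5 over control (horizontal axis), for short retained introns and long retained introns, in Input (left) and Polysome (right). In Input the short introns centre at 0.02 and the long ones at 0.28, and in polysomes they centre at -0.04 and -0.05.

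The next comparison asks which kept introns are found in RNA on polysomes. In GEMIN5 cells 23 members were higher and 37 lower in Polysome than in Input, which is 11.8% of 508 against 11.7% of all events (6.39% higher and 5.27% lower). In control cells the test called 1 higher and 3 lower (0.787% against 0.0866% of all events, 0.0394% higher and 0.0473% lower). The medians over all 609 members were -0.06 in GEMIN5 cells and 0.01 in control cells (log2 odds ratio, no PSI filter). At an unadjusted p under 0.05 there were 60 members in control cells (11.8%, against 8.16% of all events). With no PSI filter, so that all 609 and 76301 events entered, 91 members were called for GEMIN5 in Input (45.2% of events), 0 for GEMIN5 in polysomes (0.0118%), 13 between fractions of control cells (2.39%), 141 between fractions of GEMIN5 cells (46.3%) and 47 for the difference of effects (33.2%). Where PSI lies at either end of its range, the 0.5 added to each read number makes the log2 odds depend on depth. Short introns under a mean control PSI of 2 had library medians of 58 to 66 reads in Input GEMIN5. In Input control these were 107 to 152, and in Polysome GEMIN5 116 to 143. The shares with no PSI filter are therefore not independent of depth, and its part was not tested. The comparisons of fractions in GEMIN5 and in control cells share no library. Of the 60 called in GEMIN5 cells, 49 had the same sign in control cells and 24 also reached an unadjusted p under 0.05. The size rule of 15 points was met by 12 higher and 13 lower members in GEMIN5 cells (3.29% of all events) and by 3 and 5 in control cells (0.252%), or by 7 and 6 without Input control replicates 3 and 4 (0.701%). Over all 508 the sign was shared by 302, with a correlation of 0.31 across introns.

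ENKD1, a microtubule protein of the cilium base, had the largest fall on the odds scale among the named members. Its intron, 100 nucleotides long and with a stop codon in frame, read 0, 1.72, 2.13 and 0 PSI in Polysome GEMIN5 against 43.8, 23.2 and 35.1 in Input GEMIN5 (log2 odds ratio -4.94, SE 0.53, adjusted p = 0.00012). In control cells it read 5.41, 2.00, 1.52 and 3.8 in Polysome against 29.4, 16.8, 17.1 and 26.3 in Input (log2 odds ratio -2.87, SE 0.49, adjusted p = 0.043). In neither population did the fractions overlap. The count of 4 calls in control cells became 1 whichever of the 8 control libraries was left out (0.0158% to 0.063% of all events), and 0 without Input control replicates 3 and 4, where limma called 0 of all events and ENKD1 had an adjusted p of 0.28 and ELOB, described next, of 0.11. Reads fell at both junctions, with 2 and 2 in Polysome GEMIN5 against 35 and 56 in Input GEMIN5.

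The first intron of ELOB, elongin B of ubiquitin ligases and of the elongin complex, was called in both populations. It read 2.05, 1.51, 1.61 and 1.24 in Polysome GEMIN5 against 11.7, 11.8 and 13.0 in Input GEMIN5 (log2 odds ratio -3.08, SE 0.29, adjusted p = 6.9e-05), and 1.59, 1.66, 1.59 and 1.54 in Polysome control against 8.69, 8.80, 8.08 and 7.78 in Input control (-2.47, SE 0.27, adjusted p = 0.0019). The spread between replicates was small against the gap, but only the downstream junction was read. Of the 4 members called in control cells, the others beside ENKD1 and ELOB were RPS2 (higher) and RPS6KL1 (lower).

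The first intron of NME3, a nucleoside diphosphate kinase, read 17.5, 27.1, 16.4 and 24.4 in Polysome GEMIN5 against 53.7, 54.7 and 48.0 in Input GEMIN5 (log2 odds ratio -2.03, SE 0.27, adjusted p = 0.00046), without overlap and with reads at both junctions. In control cells Polysome read 21.7, 28.01, 25.3 and 18.8 against 40.5, 38.5, 39.1 and 41.3 in Input, also apart, with an adjusted p of 0.14 (log2 odds ratio -1.12, SE 0.25). MRPS24, a mitochondrial ribosomal protein picked after its values were seen, followed the same order at 7.81 ± 1.1 in Polysome GEMIN5 against 19.9 ± 1.2 in Input GEMIN5 (-1.55, SE 0.24, adjusted p = 0.0011), and 8.09 ± 1.0 in Polysome control against 15.5 ± 0.29 in Input control (-1.06, SE 0.22, adjusted p = 0.096). WDR83, a WD-repeat scaffold protein, averaged 9.27 ± 6.2 in Polysome GEMIN5 and 36.2 ± 23 in Input GEMIN5 (-2.40, SE 0.65, adjusted p = 0.028). Its Input GEMIN5 values were wide, at 28.9, 17.9 and 61.9, and its intron overlaps an exon on the opposite strand, so that reads of the 2 strands may mix if strand was not used in counting.

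Other members were higher in polysomes. GATD1, which encodes a glutamine amidotransferase-like protein, read 26.7, 16.8, 37.8 and 33.3 in Polysome GEMIN5 against 2.7, 5.71 and 2.44 in Input GEMIN5 (log2 odds ratio 2.79, SE 0.39, adjusted p = 0.00063). In control cells it read 20, 21.4, 25.8 and 26.9 in Polysome against 10.2, 4.76, 3.57 and 9.09 in Input (1.85, SE 0.36, adjusted p = 0.079). Both populations showed no overlap, and both junctions were read. The intron belongs to noncoding transcripts of the gene only.

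ZNF101, a zinc finger gene, averaged 86.2 ± 4.4 in Polysome GEMIN5 against 56.5 ± 2.4 in Input GEMIN5 (2.32, SE 0.45, adjusted p = 0.0046). TMEM136, a membrane protein gene, averaged 83.2 ± 5.4 in Polysome GEMIN5 against 58.6 ± 3.5 in Input GEMIN5 (1.78, SE 0.45, adjusted p = 0.020). TINF2, a subunit of the telomere-capping shelterin complex picked after its values were seen, had a pair of neighbouring coding-region introns that both rose (introns 6 and 7). They averaged 50.8 ± 8.2 and 49.6 ± 5.9 in Polysome GEMIN5 against 34.6 ± 1.6 and 30.4 ± 5.9 in Input GEMIN5 (adjusted p = 0.038 and 0.043). In control cells they averaged 50.8 ± 3.5 and 53.4 ± 3.0 in Polysome against 41.6 ± 4.3 and 38.6 ± 12 in Input, and neither passed. Its last intron, also a member, was not called.

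**Figure D4:**
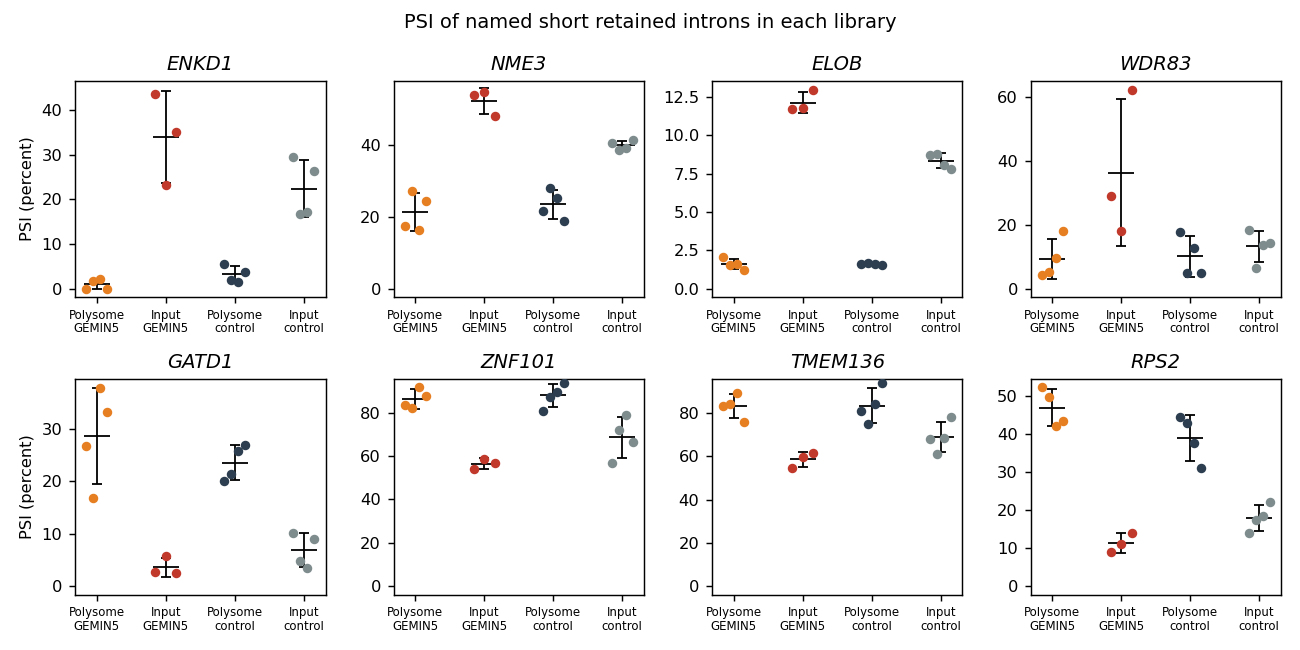
PSI in percent (vertical axes) of 8 named short retained introns in each library (points), with mean and SD, with Polysome left of Input for GEMIN5 cells and then for control cells. ENKD1, NME3, ELOB and WDR83 (top) are lower in Polysome GEMIN5 than in Input GEMIN5, and GATD1, ZNF101, TMEM136 and RPS2 (bottom) are higher.

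The calls in GEMIN5 cells are counted by place of the intron, and are to be read against 6.39% of all events called higher and 5.27% lower. Medians here are over all members of a group with no PSI filter, and counts are over those tested. Of 406 tested introns of a principal transcript 12 were higher and 35 lower in Polysome GEMIN5 than in Input GEMIN5 (median -0.18, n = 459). Of 102 tested others 11 were higher and 2 lower (median 0.43, n = 150). Within the coding sequence the counts were 6 higher and 32 lower of 354, and before it 6 and 3 of 46. Members that were not the last intron gave 12 higher and 31 lower of 290 (median -0.34), and last introns 0 and 4 of 116 (median 0.13). Coding-region members with a stop codon in frame gave 5 higher and 12 lower of 168 tested, and those open and in frame 0 and 1 of 23. The differences between these groups were not tested. In control cells the medians of principal and other introns were -0.02 and 0.08, and of not-last and last introns -0.04 and 0.01. For GEMIN5 against control, not-last and last introns had medians of 0.18 and -0.14 in Input, and -0.09 and 0.02 in polysomes. Grouped by distance to the 3′ end, nearest first, the medians in GEMIN5 cells were 0.0047, -0.22 and -0.38. In control cells they were -0.04, -0.02 and -0.02. Input GEMIN5 held the 3′ skew, and its part in these medians was not tested. The long retained introns gave 26 higher and 134 lower of 610 in GEMIN5 cells.

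**Figure D5:**
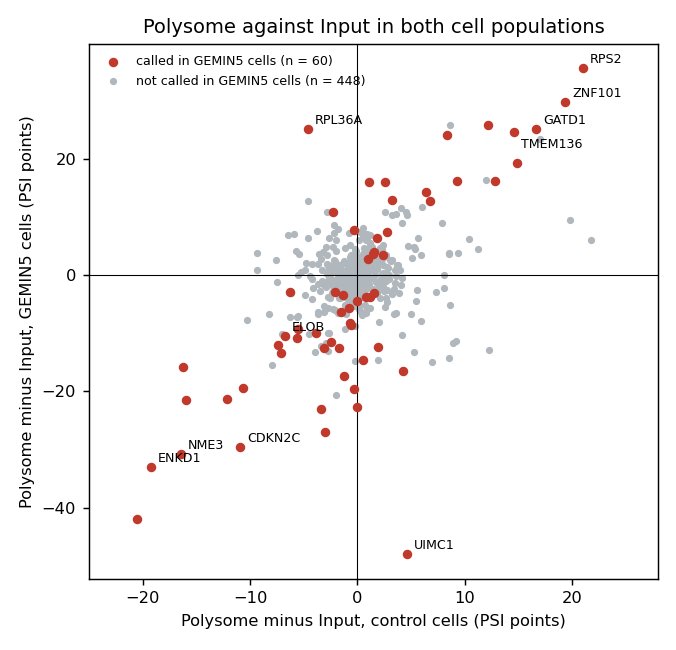
Polysome minus Input PSI difference in GEMIN5 cells (vertical axis) and in control cells (horizontal axis), in PSI points, for the 508 tested short retained introns. The 60 called in GEMIN5 cells (red) share the sign of the control difference in 49 cases, and UIMC1 and RPL36A are among the exceptions.

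Members were also counted by gene group. Of 191 measured short introns of ribosomal protein genes, 15 were members (7.85%, against 9.75% of all short introns). In GEMIN5 cells 8 of the 14 tested were higher in Polysome than in Input and 1 was lower, with a median log2 odds ratio of 0.92. Of all events 6.39% were higher and 5.27% lower. The 1 lower member was in RPL7L1, which the list includes as a relative of a ribosomal protein. RPS2, of the small subunit, read 52.3, 49.7, 42.1 and 43.5 in Polysome GEMIN5 against 9.03, 11.0 and 14.03 in Input GEMIN5 (2.81, SE 0.29, adjusted p = 9.4e-05). In control cells it read 44.4, 42.8, 37.5 and 31.1 in Polysome against 13.9, 17.4, 18.5 and 22.1 in Input (1.55, SE 0.27, adjusted p = 0.043). The groups were apart in both. Its reads were at the downstream junction, 2197 in Polysome GEMIN5 and 2461 in Input GEMIN5, while reads joining the exons were 1266 and 9786. RPL36A averaged 64.8 ± 9.7 in Polysome GEMIN5 and 39.8 ± 8.1 in Input GEMIN5 (1.51, SE 0.43, adjusted p = 0.035), and RPL41, which encodes a very short ribosomal protein, 48.1 ± 2.4 in Polysome GEMIN5 and 35.3 ± 1.1 in Input GEMIN5 (0.76, SE 0.23, adjusted p = 0.041). All are subject to the uncertainty from processed copies.

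Members in genes of RNA handling were counted in the same way. The core spliceosome list had 6 members among 126 measured short introns (4.76%), the hnRNP and RBM list 3 of 115 (2.61%), the SR protein list 0 of 27 and the SMN complex list 0 of 6. USP39, a component of the tri-snRNP, averaged 80.6 ± 3.4 in Polysome GEMIN5 and 64.7 ± 5.8 in Input GEMIN5 (1.18, SE 0.31, adjusted p = 0.021), with reads at both junctions, and 79.7 ± 4.3 in Polysome control and 77.2 ± 2.0 in Input control (0.24, adjusted p = 0.92). The hnRNP members HNRNPH1, HNRNPL and HNRNPAB, RNA-binding splicing regulators, were called in no comparison. HNRNPL averaged 12.1 ± 2.5 in Polysome GEMIN5, 12.2 ± 5.4 in Input GEMIN5, 9.28 ± 2.0 in Polysome control and 9.82 ± 1.1 in Input control.

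Of 124 short introns of translation factors 3 were members. EEF1B2, the exchange factor of elongation factor eEF1A, read 48.9, 50.9, 51.7 and 48.9 in Polysome GEMIN5 against 65.1, 64.7 and 68.1 in Input GEMIN5 (-0.95, SE 0.21, adjusted p = 0.0086). In control cells it read 48.0, 50.8, 50.5 and 49.5 in Polysome against 64.6, 65.3, 67.7 and 66.0 in Input (-0.97, SE 0.19, adjusted p = 0.079). The sizes were alike in both populations and no values overlapped. Of 57 short introns of aminoacyl-tRNA synthetases 2 were members, both in the mitochondrial SARS2, of which 1 was lower in Polysome GEMIN5 than in Input GEMIN5 (1.17 in Polysome GEMIN5 against 6.85 in Input GEMIN5 on average, log2 odds ratio -1.96, SE 0.48, adjusted p = 0.018). RNA export, 3′ end processing and decay genes had 6 members of 71, none called. DNA replication and repair genes had 7 of 102, of which APEX1, an abasic site endonuclease, was higher in Input GEMIN5 than in Input control (10.4 ± 2.5 against 4.81 ± 1.1, log2 odds ratio 1.29, SE 0.39, adjusted p = 0.049).

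The host genes were followed in the gene counts, 425 of the 512 being tested by edgeR. In Input 284 were higher and 36 lower in GEMIN5 than in control cells, with a median log2 fold change of 0.67 against -0.01 over all 12197 genes, of which 51.5% were called. Without Input control replicates 3 and 4 the counts were 251 and 29, with 42.5% of all genes called. The direction rests on the scaling: by library size alone 64 were higher and 263 lower, with a median of -0.64 against -1.29 over all genes. Relative to the median of all genes the host genes stood 0.69 higher by TMM and 0.65 higher by library size, with 349 and 348 of 425 above it. Host genes entered through introns with at least 10 reads in every library, Input GEMIN5 included. This was not asked of the 12197 genes, so the shift is not independent of the rule, and no matched background was used. In polysomes 0 host genes were called between GEMIN5 and control cells, against 0.402% of all genes (0.082% higher and 0.32% lower). At an unadjusted p under 0.05 there were 20 (4.71%, against 5.79% of all genes), and DESeq2 called 1.

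Between Polysome and Input, 27 host genes were higher and 326 lower in GEMIN5 cells (67.6% of all genes called, 32.6% higher and 35.0% lower), and 17 higher and 153 lower in control cells (43.2%, 24.1% and 19.1%). Without Input control replicates 3 and 4 the control counts were 11 and 101, with 29.8% of all genes called. By library size alone the counts were 307 and 42 in GEMIN5 cells and 179 and 31 in control cells. Their medians stood below those of all genes by a log2 of -0.96 and -0.28 under TMM, and of -0.94 and -0.28 by library size. The read rule limits these shifts in the same way. Of the 37 members lower in Polysome GEMIN5 than in Input GEMIN5, 34 had a tested host gene, and 24 of these genes were lower by TMM. Of the 23 members higher there, 19 had a tested host gene, and 14 of these genes were lower as well. Among all tested host genes 326 of 425 were lower, so these counts do not tie the intron to its gene. In bulk RNA a change in the share of cells and a change in the RNA of each cell cannot be told apart.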

How the data were processed

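RNA-seq of 15 HEK-293 libraries was used. The deposited splicing table gives PSI in percent for 721551 events, as the authors computed it, on hg38 coordinates. Its second, deposited text field holds other values, the corrected read numbers behind each PSI. The gene table holds read counts as deposited by the authors. STAR 2.7.10a and featureCounts are named in the submitters' processing notes. The version of the splicing tool and the use of strand in counting were not found in the labels or file headers.

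From these, log2 odds of inclusion (0.5 added to each read number) were fitted with limma 3.58.1 (trend, robust), with 1 group mean for each of the 4 groups, over 12697 events of all types. These had at least 10 reads in every library, a highest PSI of 5 or more and a lowest of 95 or less. P-values were adjusted by Benjamini-Hochberg over all of them. The difference of GEMIN5 effects was an interaction contrast. Gene counts were tested with edgeR 4.0.16 (quasi-likelihood, TMM, filterByExpr, 12197 genes), with DESeq2 1.42.0 as an alternative. Both tests were tried on simulated data. Intron annotation came from GENCODE 29, matched by coordinates. Of 512 host genes, 444 were in the count table.

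Named introns were the called ones with no overlap and at least 5 PSI points of difference (6 largest each way), those of gene lists, of the thresholds, and the U12-type and open-frame ones; others are said to be picked later. The members and lists were chosen with earlier results of these data known. Libraries held 11191417 to 18407933 counted reads, and depth limits the precision of introns with few reads. Alternatives covered read minimum, filters, added numbers, junction balance, scaling, left-out libraries and a replicate block.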

Additional observations from a re-analysis of the deposited data

Results flagged for a closer look

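A single library stood apart from the rest of its group in 2 of the 78 groups of named introns looked at, where chance gives about 1 in 20. Input control replicate 3 read 61.3 PSI for CDKN2C, and Input control replicate 2 read 15.3 PSI for GAS5.

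The effect of GEMIN5 differed between Polysome and Input, by the interaction term of limma with an adjusted p under 0.05, for 8 members. The log2 difference, Polysome minus Input, was -2.41 for PSRC1, -3.14 for SLC3A2, -5.79 for GGCX, -3.21 for PTCD3, -2.52 for SQSTM1, -3.21 for UIMC1, -2.90 for RPL7L1 and 4.16 for GAS5.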

How the results depend on the processing

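None of the named introns changed sign, but the direction of the host genes turned with the scaling. By library size alone in place of TMM, 64 were higher and 263 lower in Input GEMIN5 than in Input control (284 and 36 by TMM), 307 and 42 in Polysome GEMIN5 than in Input GEMIN5 (27 and 326), and 179 and 31 in Polysome control than in Input control (17 and 153). Counts of called members depended on the settings, and those with no PSI filter carry the dependence on depth given above. For GEMIN5 against control in Input (27), the count was 91 with no PSI filter (45.2% of all events then called), 41 with 1 and 13 with 0.1 added, 46 with plain junction reads, 43 with introns alone, 10 with balanced junctions, 11 with summed junctions within 4-fold, 14 with the compared groups only, 17 at a control PSI of 5 or more, 6 without Input control replicates 3 and 4, and 15 to 22 with 1 library left out. For Polysome against Input in control cells (4), it was 8 at 20 reads, 13 with no filter, 1 with 0.1 added, 10 with plain reads, 9 with introns alone, 2 without trend and robust fitting, 1 with either balance rule, 0 with the compared groups only or without those 2 libraries, and 1 to 1 with 1 library left out. In GEMIN5 cells (60), it was 141 with no filter, 94 with plain reads, 93 with introns alone, 27 with balanced junctions, 28 within 4-fold, 32 with the compared groups only, and 42 to 60 with 1 library left out. For the difference of effects (8), it was 47 with no filter, 16 with 1 and 4 with 0.1 added, 27 with plain reads and with introns alone, 2 with balanced junctions, 1 within 4-fold, 0 without those 2 libraries, and 3 to 9 with 1 library left out. GEMIN5 against control in polysomes stayed at 0 to 0. The 4-fold rule and the removal of those 2 libraries were chosen after seeing the data. The causes were not tested.

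Without Input control replicates 3 and 4 the size rule was met by 17 members in Input (10) and 13 between fractions of control cells (8), and 112 host genes were called between those fractions (170). For host genes, leaving out 1 library gave 247 to 319 calls in Input (320) and 0 to 2 in polysomes (0), 2 without Polysome control replicate 1, and DESeq2 called 1. Deviations of same-numbered libraries over splicing events had correlations of -0.024 to 0.052, and over genes of -0.691 to 0.619. In no comparison did every pair exceed 0.1, nor did every sample correlate best with its own number, so the samples were taken to share only a number. With the number as a replicate block the calls were 22 for GEMIN5 in Input, 0 for GEMIN5 in polysomes, 50 and 1 between fractions of GEMIN5 and control cells and 4 for the difference of effects, and 310 and 0 for host genes in Input and polysomes. Of 39 named results, 9 kept their side of the threshold under every alternative run, and none of the 787 alternative fits reversed a sign.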

Other observations

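Members often shared a gene: 169 of the 609 lay in 72 genes with 2 or more, and introns of 1 gene are not independent. The genes with 5 members each, picked after their values were seen, are described here. In DCXR, a reductase of dicarbonyls and L-xylulose, 3 of the 5 were lower in Polysome GEMIN5 than in Input GEMIN5. Its second intron read 8.89, 7.58, 5.08 and 17.7 PSI in Polysome GEMIN5 against 28.3, 29.2 and 30.3 in Input GEMIN5 (log2 odds ratio -2.05, SE 0.39, adjusted p = 0.0041), and averaged 11.1 ± 3.4 in Polysome control and 21.8 ± 1.9 in Input control. The fourth intron averaged 6.25 ± 2.6 in Polysome GEMIN5 and 17.1 ± 1.5 in Input GEMIN5 (-1.68, SE 0.34, adjusted p = 0.0056), with reads at both junctions, while the second was read almost only downstream. The first averaged 5.25 ± 0.96 in Polysome GEMIN5 and 9.80 ± 1.6 in Input GEMIN5 (-0.93, SE 0.28, adjusted p = 0.045). None of the 3 was called between the fractions of control cells. COMTD1, a methyltransferase-domain gene, and F12, which encodes coagulation factor XII, had no called member in any comparison.

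Introns that hold a small RNA gene were 7 of the 609 (1.15%, against 1.83% of the short introns under 2). They were in SNHG12, LRRC75A-AS1, C19orf48, PDIA5, SNHG1, TMEM179B and PIM3, with mean control PSI between 2.34 and 8.02. Of these, 4 entered the tests and none was called by limma in any comparison.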
